A study of Mus musculus with 24 samples.

Results

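The genes described here carry carbon into glucose and glycogen and out of them in the liver. They are 39 named genes in 7 groups: gluconeogenesis, glucose uptake and phosphorylation, regulated glycolysis, the reversible steps shared by both directions, lactate with malate and aspartate, entry of glycerol and fructose, and glycogen. Members were matched to the array by gene name. The array held 78 oligos for the 39 genes, and 75 of these were bright enough to be kept. All 39 genes passed the filter on dim signals and were tested among 17215 genes.

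The liver RNA came from male C57Bl/6J mice aged 8 weeks on a chow diet, killed at zeitgeber time 16, in the dark phase. The labels name the genotypes PPARaLWT (WT below), with intact Ppara, and PPARaLKO (LKO below), with Ppara deleted in the liver, and each was either fed freely or fasted for 24 h. There were 5 WT and 6 LKO animals in each state, read on 24 one-colour Agilent arrays, since 1 fed and 1 fasted WT animal were each hybridised to 2 arrays, which were averaged. The series text counts 24 mice, whereas the animal numbers of the labels give 22, and the labels were followed. The Cre driver behind the deletion is not given in the sources used here.

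Levels below are log2 signals relative to the 75th percentile of the array, and each gene is read by its brightest oligo, so a level can be compared between animals but not between genes. A change is a difference of group means on that log2 scale, with its standard error (SE, also written after ±) from limma's fit to all 22 animals. A change was called at a Benjamini-Hochberg adjusted p below 0.05 over all genes. The 75th percentile lay between 310 and 413 intensity units on the 24 arrays, 50.03% to 58.8% of the oligos were well above background, and no member's spot was saturated. Ppara itself lay at 5.55 to 6.07 in fed WT and 4.47 to 5.51 in fed LKO, and at 6.26 to 6.60 in fasted WT and 5.38 to 5.72 in fasted LKO. The genotypes therefore did not overlap in either state, although the deleted part is not given in the sources used here and the oligo may lie outside it. All 8 hepatocyte markers were well above background in every group. In whole liver, fewer cells of a type and less RNA per cell cannot be told apart.

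Gluconeogenesis builds glucose from lactate, amino acids and glycerol and shares most of its enzymes with glycolysis. The enzymes that work in only one direction are the usual points of control, and insulin, glucagon and the carbohydrate-sensing factor ChREBP are known to act on their genes. The liver stores glucose as glycogen after meals and breaks it down early in a fast. PPARα, the product of Ppara, is a nuclear receptor best known for switching on fatty acid oxidation during fasting, and several genes of glycerol use are among its textbook targets.

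With fasting in WT, 13 of the 39 members rose and 12 fell, where 23.1% of all genes tested were called higher and 21.2% lower. With fasting in LKO, 7 rose and 19 fell, against 23.0% and 26.7% of all genes. In the fed state 1 member was higher and 2 were lower in LKO than in WT, against 1.77% and 2.25%. In the fasted state 2 were higher and 16 lower in LKO, against 16.5% and 21.4%. The fasting response itself differed between genotypes for 15 members, 2 with a more positive and 13 with a more negative response in LKO, against 7.50% and 11.1% of all genes. The median member change was -0.02, -0.36, -0.02, -0.22 and -0.29 in these 5 comparisons, and that of all genes 0.01, -0.04, 0.01, -0.03 and -0.04. The comparisons share animals, so their counts do not add up as separate evidence. The same shares of all genes apply to the counts by group and by marker list below. Whether a group or a list differs from other genes was not tested. Of the 39 members, 7 rose and 11 fell in both genotypes, 2 rose in WT and fell in LKO, and 8 were called in neither. The shares of all genes with these joint patterns were not counted, so whether the members differ from other genes here was not tested.

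**Figure D1:**
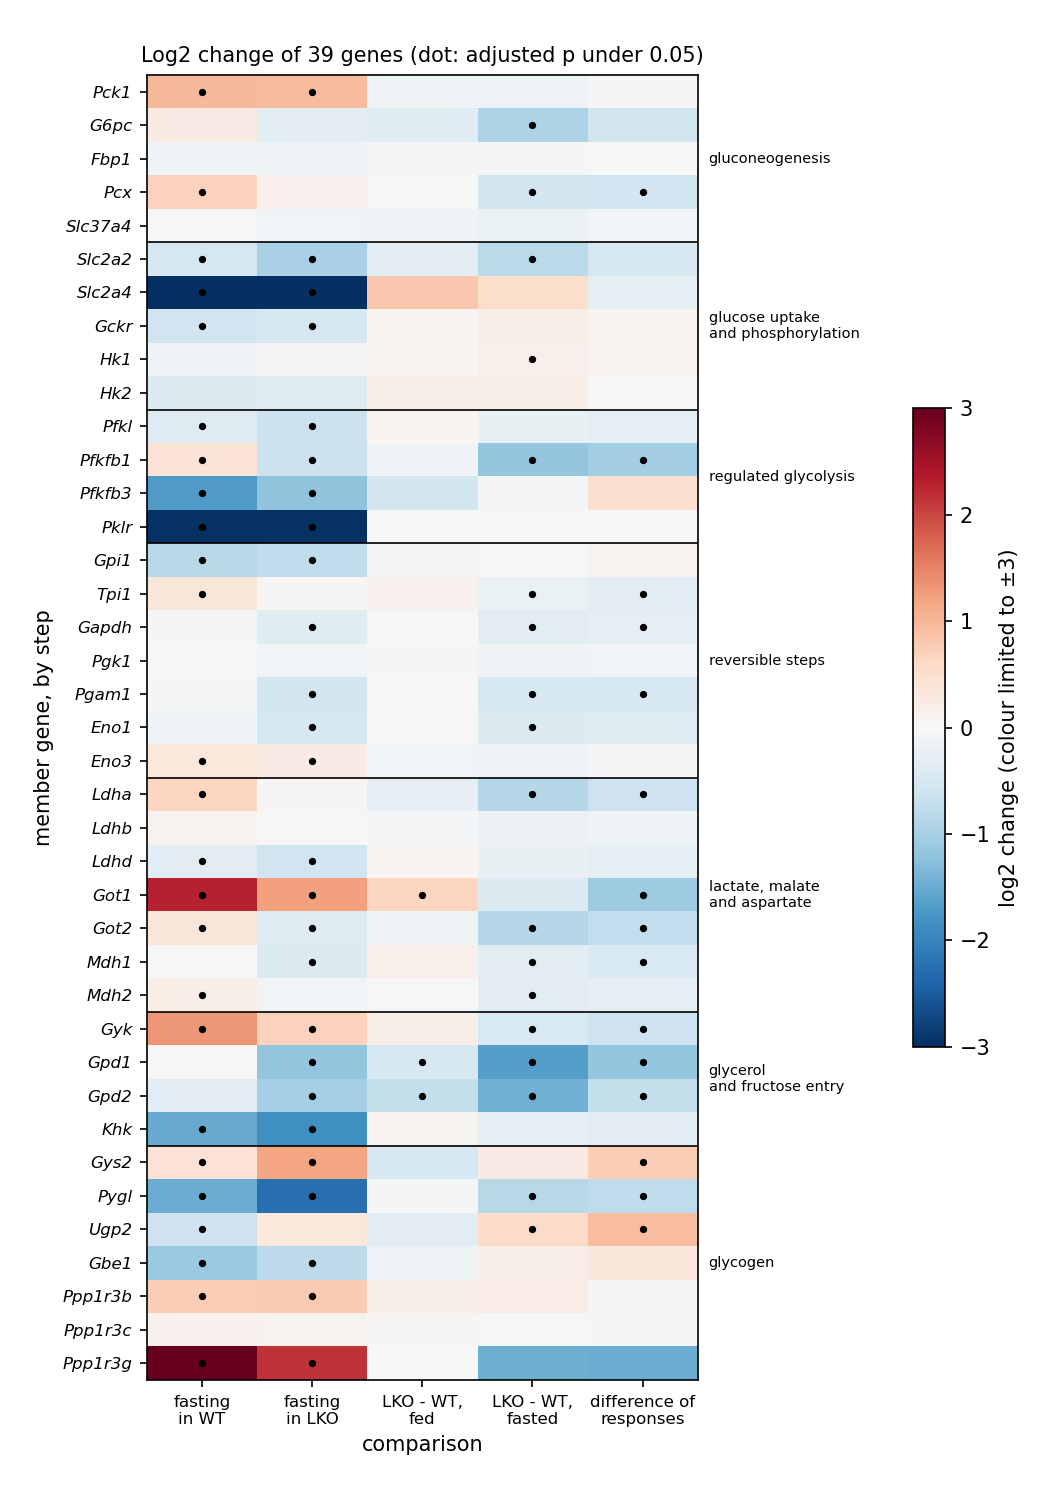
Log2 change of the 39 genes (rows, by step) in the 5 comparisons (columns), with colour for the change, limited to ±3, and a dot for an adjusted p below 0.05. The 2 fasting columns carry most of the dots, and the fed genotype column holds 3 dots against 18 in the fasted one.

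Among the 5 genes of gluconeogenesis, 2 rose with fasting in WT, 1 rose in LKO, and none fell in either. Pck1, which encodes the cytosolic enzyme that commits oxaloacetate to glucose synthesis, rose to about the same extent in both. Its level was 8.35, 7.76, 8.43, 8.47 and 8.43 in the fed WT animals and 9.28, 9.19, 9.29, 9.22 and 9.30 in the fasted ones. In LKO it ran from 7.84 to 8.47 with a median of 8.15 when fed and from 9.01 to 9.23 with a median of 9.11 when fasted. Every fasted animal of a genotype was above every fed one. Pck1 was 1.96-fold higher with fasting in WT (log2 change 0.97, SE 0.12, adjusted p = 1.48e-06) and 1.92-fold higher in LKO (log2 change 0.94, SE 0.11, adjusted p = 4.53e-07), and the difference of the responses was -0.03 ± 0.16 SE, with an adjusted p of 0.933. Of the fed WT animals, replicate 2 had the lowest Pck1 level.

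Pcx and G6pc, which act at the start and the end of the route, differed by genotype in the fasted state. Pcx encodes pyruvate carboxylase, the mitochondrial first step from pyruvate. It lay at 7.03, 6.92, 7.23, 7.20 and 7.26 in fed WT and 7.90, 7.80, 7.75, 7.84 and 7.77 in fasted WT, from 7.06 to 7.35 with a median of 7.09 in fed LKO and from 7.11 to 7.44 with a median of 7.24 in fasted LKO. The fasted WT animals stood above all others. The rise in WT (log2 change 0.69, SE 0.07, adjusted p = 2.97e-07) was not matched in LKO (log2 change 0.12, SE 0.07, adjusted p = 0.14), and the responses differed by -0.56 ± 0.10 SE at an adjusted p of 0.000536. The change in LKO was called without fed LKO replicate 3 (0.17, adjusted p = 0.0349), under both quantile normalizations and under the authors' deposited table (0.19, adjusted p = 0.031).

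G6pc encodes the catalytic subunit of the glucose phosphatase that releases free glucose. Its level was 7.45, 7.61, 6.96, 6.76 and 7.53 in fed WT and 7.51, 7.33, 7.55, 7.74 and 7.38 in fasted WT. In LKO it went from 5.94 to 7.64 with a median of 6.85 when fed and from 6.35 to 6.84 with a median of 6.55 when fasted. The fed animals of both genotypes spread widely and overlapped with the fasted ones. Neither fasting change was called (0.24 ± 0.26 SE in WT and -0.31 ± 0.23 SE in LKO), but fasted LKO lay below fasted WT without overlap (log2 change -0.92, SE 0.24, adjusted p = 0.00549). The difference of the responses was -0.55 ± 0.35 SE and was not called (adjusted p = 0.303). Fbp1, which encodes fructose bisphosphatase, and Slc37a4, the transporter that feeds glucose phosphate to G6pc, were called in none of the 5 comparisons, with changes between -0.19 and 0.00. Under the authors' deposited table Fbp1 was called lower with fasting, at -0.24 in WT (adjusted p = 0.0119) and -0.19 in LKO (adjusted p = 0.0197), and the latter was also called without fasted LKO replicate 5 (-0.17, adjusted p = 0.0492). Without fed LKO replicate 3, Slc37a4 was called lower with fasting in LKO (-0.20, adjusted p = 0.0223) and lower in fasted LKO than in fasted WT (-0.19, adjusted p = 0.0414).

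The promoter of Pck1 is shown because a cAMP response element near its start is the classic route by which glucagon acts on it. The window covers the 250 bases before the start at chr2:173152823-173153072 on the plus strand (RefSeq, GRCm38.p6), and the capitals mark the short form ACGTCA of that element, 91 bases before the start.
Pck1: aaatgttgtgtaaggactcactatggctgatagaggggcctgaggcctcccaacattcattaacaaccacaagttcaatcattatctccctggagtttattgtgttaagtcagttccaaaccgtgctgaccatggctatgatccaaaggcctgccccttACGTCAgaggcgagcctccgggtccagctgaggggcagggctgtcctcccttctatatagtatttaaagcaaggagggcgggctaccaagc
Of the 39 members 34 had a RefSeq window, and 7 of these held ACGTCA on either strand: Hk2, Ldha, Mdh2, Pck1, Pfkfb3, Ppp1r3g and Slc37a4. The same letters occur in 6.47% of all 32851 windows. The 34 members had 48 windows between them, and a member counted if any of its windows held the motif. The count of members and the share of windows are therefore not alike, here and for the motifs below. Whether a motif is more common among the members was not tested. Among the 7 members, Pck1 and Ppp1r3g were called higher and Pfkfb3 lower with fasting in both genotypes, Ldha and Mdh2 were called higher in WT, and Hk2 and Slc37a4 were not called with fasting.

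**Figure D2:**
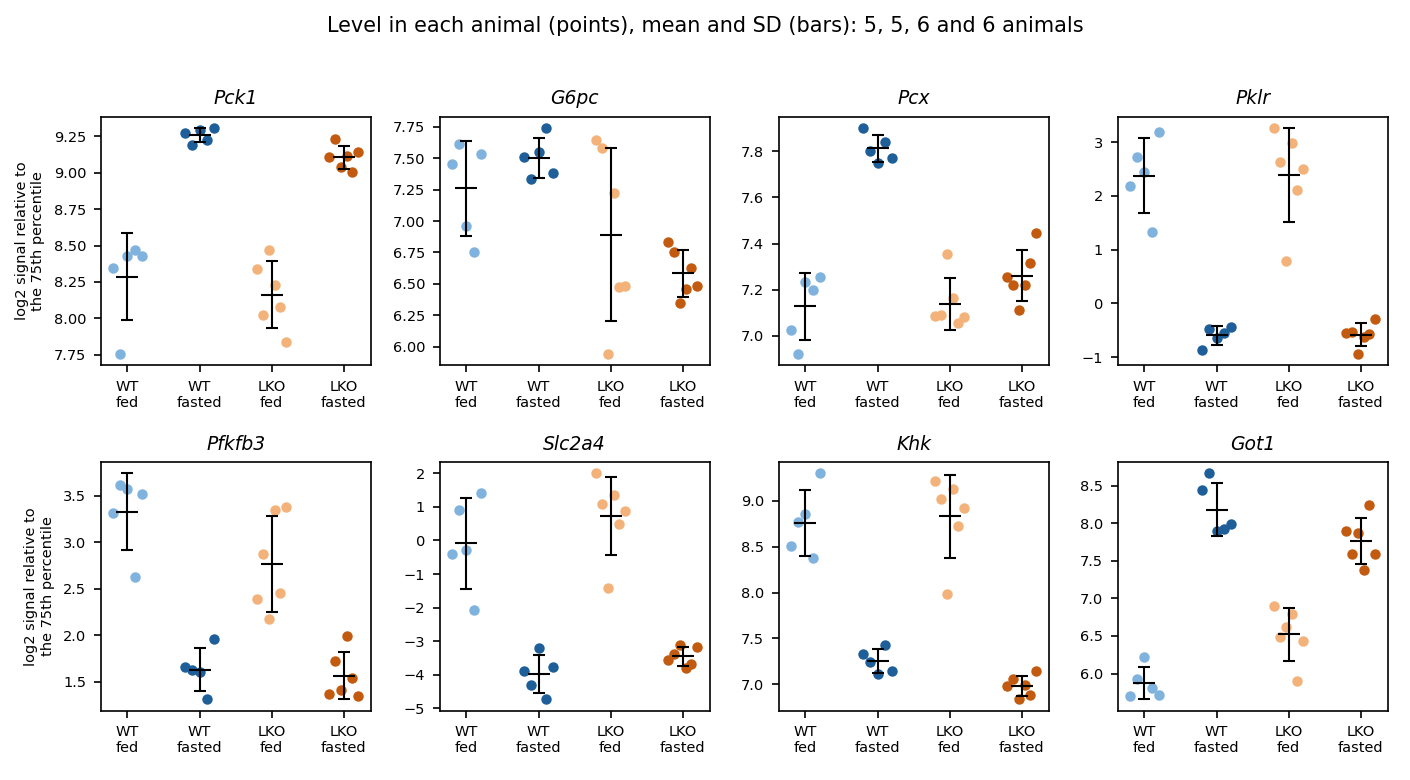
Level of 8 genes in each animal (y, log2 signal relative to the 75th percentile of the array), with points for animals and bars for the mean and SD (5 WT mice and 6 LKO mice in each state). Pck1 and Got1 are higher in all fasted animals of a genotype, Pklr, Pfkfb3, Slc2a4 and Khk are lower, and Pcx rises clear of the other groups in fasted WT.

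Genes for glucose uptake and phosphorylation gave 3 falls and no rise of 5 with fasting in either genotype. Slc2a2 encodes GLUT2, the main glucose transporter of hepatocytes. Its level was 3.83, 3.88, 3.98, 3.63 and 3.97 in fed WT and 3.31, 3.20, 3.37, 3.44 and 3.45 in fasted WT, from 2.47 to 3.94 with a median of 3.68 in fed LKO and from 2.39 to 2.71 with a median of 2.55 in fasted LKO. All fasted LKO animals were below all fasted WT animals (log2 change -0.82, SE 0.18, adjusted p = 0.000946). The fall was 1.42-fold in WT (log2 change -0.50, SE 0.18, adjusted p = 0.0305) and 1.98-fold in LKO (log2 change -0.98, SE 0.17, adjusted p = 5.54e-05), and the difference of -0.48 ± 0.25 SE was not called (adjusted p = 0.195). It was called without fed LKO replicate 3, whose level of 2.47 was the lowest fed value (-0.69, adjusted p = 4.16e-04). The call in WT was lost without any 1 of fed WT replicates 2, 3 and 5 or fasted WT replicates 1 and 2, with adjusted p from 0.0528 to 0.0675.

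Slc2a4 encodes GLUT4, the insulin-responsive transporter of muscle and fat. It had the largest fall of any member. It was read at -0.39, 0.90, -0.30, -2.06 and 1.43 in fed WT and -3.90, -4.30, -3.19, -4.73 and -3.78 in fasted WT, from -1.41 to 2.00 with a median of 0.99 in fed LKO and from -3.81 to -3.11 with a median of -3.47 in fasted LKO. Fed and fasted animals did not overlap in either genotype, and the fed ones spread over more than the fasted ones. The signal was well above background in all 11 fed animals, in 2 of 5 fasted WT and in all 6 fasted LKO animals. The change was -3.90 ± 0.56 SE in WT (adjusted p = 1.15e-05), where 3 of the 5 fasted animals give only an upper limit on the level, so that its size is uncertain, and -4.19 ± 0.51 SE in LKO (adjusted p = 1.06e-06). Of the 6 skeletal muscle markers 3 were never above background in fed WT and 2 in each other group, and their mean level lay between -4.63 and -3.25 over all animals, with none of the 3 tested called in any comparison. The 5 adipocyte markers gave 4 that could be tested, of which none was called with fasting in WT and 1 was lower in LKO.

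Gckr, a regulatory protein of the first phosphorylation of glucose, fell with fasting in WT (-0.60 ± 0.12 SE) and LKO (-0.51 ± 0.11 SE). Hk1 and Hk2, the hexokinases of most other tissues, were not called with fasting. Hk1 was called lower with fasting in WT under the authors' table (-0.18, adjusted p = 0.0301) and both quantile normalizations (-0.18 and -0.20). Under the latter the difference of its responses was called as well (0.22 and 0.23). Hk1 was called slightly higher in fasted LKO (log2 change 0.15, SE 0.06, adjusted p = 0.0324), but the call was lost without fasted WT replicate 1 or 3 or fasted LKO replicate 3 or 5 (adjusted p 0.0703 to 0.0932). Its other oligo that was called there went the other way (log2 change -0.22, SE 0.08, adjusted p = 0.0281), and the mean of its oligos gave -0.047, so no direction is given for Hk1.

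Of the 4 genes of regulated glycolysis, 3 fell and 1 rose with fasting in WT, and all 4 fell in LKO. Pklr, the liver pyruvate kinase that closes glycolysis, fell the most. It was at 2.19, 2.72, 2.45, 1.33 and 3.20 in fed WT and -0.87, -0.47, -0.64, -0.54 and -0.44 in fasted WT, from 0.80 to 3.26 with a median of 2.57 in fed LKO and from -0.94 to -0.28 with a median of -0.56 in fasted LKO. No fasted animal reached a fed one. The fall was 7.86-fold in WT (log2 change -2.97, SE 0.35, adjusted p = 9.31e-07) and 7.82-fold in LKO (log2 change -2.97, SE 0.32, adjusted p = 1.98e-07). The genotypes differed by 0.00 ± 0.33 SE when fed and 0.01 ± 0.33 SE when fasted, neither called.

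The window before the start of Pklr is shown because ChREBP is known to act through a carbohydrate response element there. It lies at chr3:89136373-89136622 on the plus strand (RefSeq, GRCm38.p6), and the capitals mark the only match to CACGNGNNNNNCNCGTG, 170 bases before the start.
Pklr: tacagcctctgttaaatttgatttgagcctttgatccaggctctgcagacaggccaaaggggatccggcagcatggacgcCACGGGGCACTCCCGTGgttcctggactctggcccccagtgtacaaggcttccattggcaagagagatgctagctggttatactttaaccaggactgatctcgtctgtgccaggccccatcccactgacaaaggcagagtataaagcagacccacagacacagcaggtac
That pattern reads the same on both strands and stands in 13 of the 32851 windows (0.0396%), Pklr being the only member among them. The shorter E-box CACGTG stands in 6.02% of the windows and in those of Khk, Ldha, Ldhd, Pcx, Pfkfb3 and Ppp1r3c. A direct repeat of AGGNCA with 1 base between (AGGNCANAGGNCA), the textbook form of a PPAR element, was searched on both strands, stands in 0.338% of all windows and was in none of the 34 members with a window. At so low a share most sets of 48 windows would hold none, so nothing follows from the absence of this repeat. Bases further from the start were not searched. Ppp1r3b, Gys2, Gpd1, Slc2a4 and Gyk had no window and were not searched.

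Pfkfb3 and Pfkl fell in both genotypes. Pfkfb3 encodes an isoform of the bifunctional enzyme that pushes toward glycolysis. Its fed WT levels were 3.31, 3.61, 3.57, 2.62 and 3.51 and its fasted WT levels 1.65, 1.62, 1.60, 1.31 and 1.96, and in LKO it ran from 2.17 to 3.38 with a median of 2.66 when fed and from 1.35 to 1.99 with a median of 1.47 when fasted. Fed and fasted animals were apart in both genotypes (-1.70 ± 0.23 SE in WT, -1.20 ± 0.21 SE in LKO). Pfkl, the liver phosphofructokinase, changed by -0.38 ± 0.10 SE in WT and -0.65 ± 0.09 SE in LKO, both called. It was called lower in fasted LKO than in fasted WT without fasted WT replicate 2 (-0.29, adjusted p = 0.0243) or fasted LKO replicate 2 (-0.26, adjusted p = 0.0458), and not with all animals (adjusted p = 0.0783).

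Pfkfb1, the liver isoform of the same bifunctional enzyme, moved in opposite directions. It was at 4.88, 4.98, 4.71, 4.70 and 5.01 in fed WT and 5.19, 5.48, 5.24, 5.12 and 5.26 in fasted WT, from 4.15 to 5.13 with a median of 4.86 in fed LKO and from 3.74 to 4.42 with a median of 4.10 in fasted LKO. The fasted WT animals were above all fed WT ones, and the fasted LKO animals were below all fasted WT ones. It rose by 1.32-fold in WT (log2 change 0.40, SE 0.14, adjusted p = 0.0284) and fell by 1.57-fold in LKO (log2 change -0.65, SE 0.13, adjusted p = 0.000298). The responses differed by -1.05 ± 0.19 SE (adjusted p = 0.000783), and fasted LKO was 2.22-fold below fasted WT (log2 change -1.15, SE 0.14, adjusted p = 1.51e-06). The rise in WT was not called without fed WT replicate 3 or 4 or fasted WT replicate 2, at 0.35 to 0.36 with adjusted p from 0.066 to 0.0762.

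Several of these genes are read by more than 1 oligo, and a second oligo of 5 genes with a genotype-dependent response, chosen after their values were seen, is printed as a separate reading of the same RNA. Each is 60 bases long with 1 reading frame free of stop codons, given as in the array files with mm9 positions, and the letters are all in lower case since no part is singled out.
Pfkfb1, chrX:147056628-147056687, plus strand: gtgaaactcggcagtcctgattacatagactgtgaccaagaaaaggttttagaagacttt
Got1, chr19:43579114-43579173, minus strand: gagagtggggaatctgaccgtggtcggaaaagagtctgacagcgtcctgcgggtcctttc
Ldha, chr7:54103010-54103069, plus strand: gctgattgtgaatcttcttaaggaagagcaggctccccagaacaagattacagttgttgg
Tpi1, chr6:124761923-124761982, minus strand: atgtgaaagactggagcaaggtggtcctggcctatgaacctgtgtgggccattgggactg
Gpd1, chr15:99550555-99550614, plus strand: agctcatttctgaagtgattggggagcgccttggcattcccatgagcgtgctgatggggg
The difference of the fasting responses by these second oligos was -1.03 for Pfkfb1, -1.20 for Got1, -1.004 for Ldha, -0.40 for Tpi1 and -1.40 for Gpd1, all called in a fit over all kept oligos. The brightest oligos gave -1.05, -1.07, -0.62, -0.34 and -1.17. Of the 15 members with a called difference, 10 had 20 further kept oligos between them, all 20 with the sign of the main oligo and 17 of them called. The 15 were picked by their main oligo in this same contrast, and all oligos read the same RNA on the same arrays. The further oligos are therefore not separate support, and several of them read Gapdh alone. The matching share for other called genes was not counted. The other 5 (Got2, Gys2, Pcx, Pygl and Ugp2) rest on 1 oligo each.

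The 7 genes of the reversible steps gave 2 rises and 1 fall with fasting in WT, and 1 rise and 4 falls in LKO. Gpi1, which interconverts the phosphates of glucose and fructose, was at 7.07, 7.22, 7.36, 6.79 and 8.13 in fed WT and 6.57, 6.63, 6.44, 6.53 and 6.27 in fasted WT, from 6.56 to 7.70 with a median of 7.31 in fed LKO and from 6.48 to 6.53 with a median of 6.51 in fasted LKO. Fed and fasted animals were apart in both genotypes, and it fell in WT (-0.83 ± 0.20 SE) and LKO (-0.75 ± 0.18 SE). Eno3, the muscle enolase, rose in both (0.31 ± 0.08 SE and 0.25 ± 0.07 SE). Pgk1, phosphoglycerate kinase, was called in none of the 5 comparisons, with changes between -0.11 and -0.01. Tpi1, triose phosphate isomerase, was at 6.93, 7.05, 7.05, 7.04 and 7.02 in fed WT and 7.46, 7.53, 7.33, 7.30 and 7.33 in fasted WT, and from 7.01 to 7.26 with a median of 7.19 in fed and from 7.04 to 7.43 with a median of 7.18 in fasted LKO. All fasted WT animals were above all fed WT ones, and in LKO the states overlapped.

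The rise of Tpi1 in WT (log2 change 0.37, SE 0.07, adjusted p = 0.00011) was not seen as a call in LKO (0.03 ± 0.06 SE), and the responses differed by -0.34 ± 0.09 SE (adjusted p = 0.0118), a call that was lost under the authors' table (-0.22, adjusted p = 0.0607) and both quantile normalizations (-0.18 and -0.19, adjusted p = 0.088 and 0.0878). Its lower level in fasted LKO (-0.20 ± 0.06 SE) was also not called under these 3, nor without fasted WT replicate 2 (-0.16, adjusted p = 0.0558). Pgam1, phosphoglycerate mutase, ran 5.86 to 6.00 in fed WT, 5.75 to 6.00 in fasted WT, 5.75 to 6.09 in fed LKO and 5.26 to 5.59 in fasted LKO. Its fasted LKO animals were below all others. The fall in LKO (log2 change -0.54, SE 0.06, adjusted p = 6.53e-07) differed from the change in WT (-0.07 ± 0.07 SE) by -0.47 ± 0.09 SE (adjusted p = 0.00163).

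Gapdh, the glyceraldehyde phosphate dehydrogenase often used as a reference gene, fell with fasting in LKO (log2 change -0.36, SE 0.06, adjusted p = 2.49e-05) and not as a call in WT (-0.06 ± 0.06 SE). Its fasted WT animals lay at 9.41 to 9.47 and its fasted LKO animals at 9.01 to 9.31, without overlap (log2 change -0.31, SE 0.06, adjusted p = 0.000363). The responses differed by -0.30 ± 0.08 SE (adjusted p = 0.0176). Under quantile normalization Gapdh was also called lower with fasting in WT (-0.16, adjusted p = 0.0191). Eno1, the common enolase, fell in LKO (-0.53 ± 0.09 SE) and was lower in fasted LKO than in fasted WT (-0.40 ± 0.10 SE). The fasting change of Eno1 in WT was -0.14 and was not called. It was called lower in WT under the authors' table (-0.24, adjusted p = 0.0285) and both quantile normalizations (-0.23 in both, adjusted p = 0.0319 and 0.0438). The difference of its responses (-0.39 ± 0.14 SE) just missed the call (adjusted p = 0.0518). It was called without fed WT replicate 5, fasted WT replicate 5, fed LKO replicate 3 or fasted LKO replicate 5, at -0.46 to -0.44. The call was also gained with the slide as a block (-0.38, adjusted p = 0.0455) and a stricter filter on dim oligos (adjusted p = 0.0484). With the mean of the Eno1 oligos it was called too (-0.61, adjusted p = 0.00831). However, the dimmest Eno1 oligo, annotated to another transcript, hardly changed in LKO, with mean levels of 0.565 fed and 0.522 fasted. In WT its mean level was 0.405 fed and 1.202 fasted. Gapdh, Pgk1, Eno1, Ldha and Tpi1 have near-identical copies in the genome, and what these copies add to their signals was not tested.

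Lactate dehydrogenase and the malate-aspartate enzymes gave 4 rises and 1 fall of 7 with fasting in WT, and 1 rise and 3 falls in LKO. Got1, the cytosolic aspartate aminotransferase, had the second largest rise of any member. It was at 5.70, 5.93, 6.22, 5.81 and 5.71 in fed WT and 8.44, 8.66, 7.89, 7.92 and 7.99 in fasted WT, from 5.90 to 6.90 with a median of 6.55 in fed LKO and from 7.37 to 8.25 with a median of 7.73 in fasted LKO. Fasted animals stood above fed ones in both genotypes. The rise was 4.95-fold in WT (log2 change 2.31, SE 0.19, adjusted p = 1.08e-08) and 2.36-fold in LKO (log2 change 1.24, SE 0.17, adjusted p = 5.63e-06), and the responses differed by -1.07 ± 0.26 SE (adjusted p = 0.00647). Fed LKO was above fed WT by 0.65 ± 0.18 SE (adjusted p = 0.0486), a call that was lost in 17 of the 22 fits that leave out 1 animal, with adjusted p from 0.0515 to 0.122, and with the slide as a block (adjusted p = 0.0643). Of the fits that leave out 1 animal, those without fed WT replicate 3, fasted WT replicate 2, fed LKO replicate 5 or fasted LKO replicate 4 or 5 kept it.

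Got2, the mitochondrial partner of Got1, is the other member that rose in WT and fell in LKO. Its levels were 6.52, 6.55, 6.58, 6.63 and 6.49 in fed WT and 6.98, 6.85, 6.92, 6.94 and 6.93 in fasted WT, from 6.36 to 6.52 with a median of 6.45 in fed LKO and from 5.82 to 6.15 with a median of 6.12 in fasted LKO. The states did not overlap in either genotype, and the 6 fasted LKO animals were the lowest of all. The change was 0.37 ± 0.06 SE in WT (adjusted p = 2.76e-05) and -0.38 ± 0.05 SE in LKO (adjusted p = 4.28e-06), with a difference of -0.75 ± 0.08 SE (adjusted p = 1.95e-06). In the fasted state LKO was 1.81-fold below WT (log2 change -0.86, SE 0.05, adjusted p = 2.35e-10).

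Ldha, the muscle-type lactate dehydrogenase subunit that is also the main one in liver, rose with fasting in WT alone as a call. It was at 8.56, 8.44, 8.58, 8.78 and 8.48 in fed WT and 9.16, 9.18, 9.24, 9.16 and 9.36 in fasted WT, from 8.07 to 8.88 with a median of 8.27 in fed LKO and from 8.19 to 8.50 with a median of 8.39 in fasted LKO. All fasted WT animals were above every other animal. The rise was 0.65 ± 0.11 SE in WT (adjusted p = 9.00e-05) against 0.03 ± 0.10 SE in LKO, and the responses differed by -0.62 ± 0.15 SE (adjusted p = 0.00782). Fed LKO replicate 3, at 8.88, was the highest fed LKO animal, and without it fed LKO was called below fed WT (-0.36, adjusted p = 0.00678). The window before 1 of its starts, at chr7:46845554-46845803 on the plus strand (RefSeq, GRCm38.p6), is shown because it holds 2 kinds of motif found in other members. Capitals mark 2 E-boxes CACGTG, 145 and 48 bases before the start, and the whole cAMP element TGACGTCA, 12 bases before it.
Ldha: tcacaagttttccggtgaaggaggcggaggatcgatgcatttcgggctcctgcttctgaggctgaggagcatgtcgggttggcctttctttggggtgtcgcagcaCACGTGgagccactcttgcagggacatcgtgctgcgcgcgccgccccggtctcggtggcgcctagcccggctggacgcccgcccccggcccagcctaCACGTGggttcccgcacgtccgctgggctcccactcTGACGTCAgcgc
The whole element stands in 1.55% of all windows, and among the members in those of Ldha and Mdh2.

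Mdh1 and Mdh2, the cytosolic and mitochondrial malate dehydrogenases, were both lower in fasted LKO than in fasted WT (-0.31 ± 0.08 SE and -0.31 ± 0.07 SE), though the call of Mdh1 was lost under normexp with quantile normalization and under the authors' table (-0.16 in both). Mdh1 fell in LKO (-0.44 ± 0.07 SE) and not as a call in WT (0.01 ± 0.08 SE), and the responses differed by -0.45 ± 0.11 SE (adjusted p = 0.00623), which was not called under the authors' table (-0.29, adjusted p = 0.0593). Mdh2 rose in WT (log2 change 0.20, SE 0.07, adjusted p = 0.036), a call lost without fed WT replicate 2, 3, 4 or 5 or fasted WT replicate 1 or 2 (0.15 to 0.20, adjusted p 0.0537 to 0.112) and under the authors' table (0.10, adjusted p = 0.229). The difference of its responses (-0.29 ± 0.10 SE) was called without fasted WT replicate 3, fed LKO replicate 3 or fasted LKO replicate 5 (-0.33 to -0.31). Ldhd, which oxidises D-lactate, fell in WT (-0.33 ± 0.11 SE) and LKO (-0.61 ± 0.10 SE), the first not called without fed WT replicate 4 (-0.27 with an adjusted p of 0.0546). In the fasted state its difference between genotypes (-0.22 ± 0.10 SE) was called without fed LKO replicate 3 (adjusted p = 0.0398) or fasted LKO replicate 6 (adjusted p = 0.0394). Ldhb, the heart-type subunit, was called in no comparison.

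**Figure D3:**
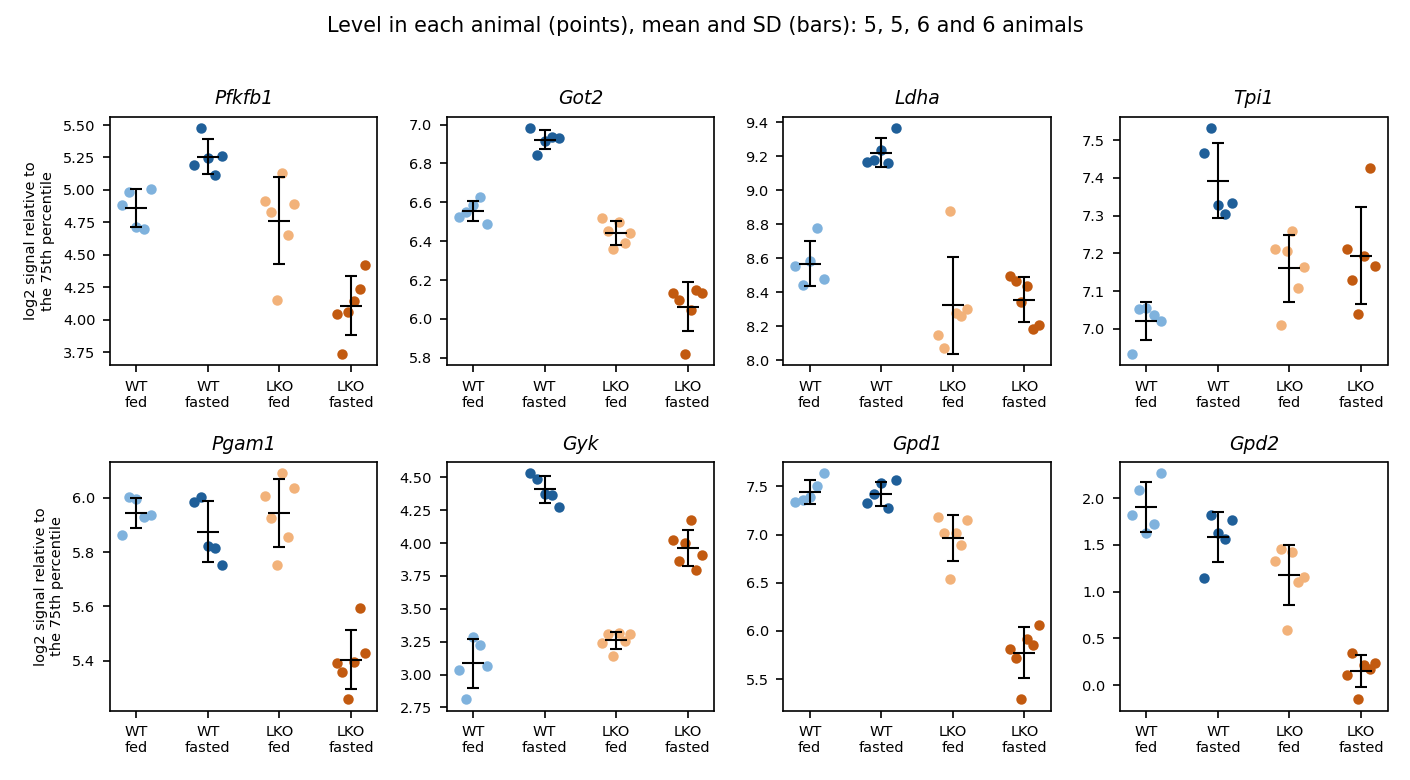
Level of 8 genes whose fasting response differed between genotypes, per animal (y, log2 signal relative to the 75th percentile of the array), with bars for the mean and SD of 5, 5, 6 and 6 animals. The fasted LKO mean lies below the fasted WT mean in every panel, and the animals overlap only for Tpi1, and Pfkfb1 and Got2 move in opposite directions in the 2 genotypes.

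Of the 7 groups, entry of glycerol and fructose had the largest median difference between the fasted genotypes (-0.94). In it 3 of 4 genes were called lower in LKO, against 21.4% of all genes. The group is singled out by these same values, with no test of it. Gpd1, Gpd2 and Gyk handle glycerol phosphate, and 3 of the 4 genes of the group had a more negative fasting response in LKO, against 11.1% of all genes. Gpd1, the cytosolic glycerol phosphate dehydrogenase, was at 7.33, 7.36, 7.39, 7.50 and 7.63 in fed WT and 7.33, 7.42, 7.53, 7.28 and 7.57 in fasted WT, from 6.54 to 7.19 with a median of 7.02 in fed LKO and from 5.29 to 6.06 with a median of 5.83 in fasted LKO. Every LKO animal was below every WT animal in the same state, and fasted LKO was lowest. It did not change as a call with fasting in WT (-0.02 ± 0.13 SE), where its second oligo was called higher (log2 change 0.36, SE 0.12, adjusted p = 0.0208). It fell 2.29-fold in LKO (log2 change -1.19, SE 0.11, adjusted p = 4.73e-08), and fasted LKO was 3.14-fold below fasted WT (log2 change -1.65, SE 0.12, adjusted p = 1.70e-09). The responses differed by -1.17 ± 0.17 SE (adjusted p = 9.31e-05).

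Gpd2, the mitochondrial dehydrogenase of the same shuttle, followed the same order. It was at 1.82, 2.08, 1.63, 1.72 and 2.26 in fed WT and 1.15, 1.82, 1.63, 1.56 and 1.77 in fasted WT, from 0.59 to 1.46 with a median of 1.24 in fed LKO and from -0.15 to 0.34 with a median of 0.19 in fasted LKO. Genotypes did not overlap in either state. The change was -1.02 ± 0.14 SE in LKO (adjusted p = 6.13e-06) and -0.32 ± 0.16 SE in WT (not called), and the difference of -0.71 ± 0.21 SE (adjusted p = 0.0257) was not called without fed WT replicate 3 (-0.64, adjusted p = 0.0522). With the mean of the Gpd2 oligos the fall in WT was called (-0.55, adjusted p = 0.0214). The difference of responses was then not called (-0.63, adjusted p = 0.0886). Gpd1 and Gpd2 were the 2 members called lower in fed LKO, with differences of -0.48 ± 0.12 SE (adjusted p = 0.0255) and -0.73 ± 0.15 SE (adjusted p = 0.00666). That call of Gpd1 was lost without fed WT replicate 4 or 5 or fed LKO replicate 5 (-0.46 to -0.43, adjusted p 0.0533 to 0.0768), and that of Gpd2 with the mean of its oligos (-0.61, adjusted p = 0.0583).

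Gyk, glycerol kinase, rose in both genotypes. Its levels were 3.04, 2.81, 3.29, 3.23 and 3.06 in fed WT and 4.53, 4.49, 4.38, 4.37 and 4.28 in fasted WT, from 3.14 to 3.31 with a median of 3.28 in fed LKO and from 3.80 to 4.18 with a median of 3.95 in fasted LKO. All fasted animals were above all fed ones, and fasted LKO was below fasted WT without overlap. The rise was 2.5-fold in WT (log2 change 1.32, SE 0.08, adjusted p = 2.82e-10) and 1.62-fold in LKO (log2 change 0.70, SE 0.08, adjusted p = 1.92e-07), and the responses differed by -0.62 ± 0.11 SE (adjusted p = 0.000635). Khk, ketohexokinase, takes up fructose carbon. It was at 8.51, 8.77, 8.86, 8.37 and 9.30 in fed WT and 7.34, 7.25, 7.12, 7.43 and 7.15 in fasted WT, from 7.98 to 9.22 with a median of 8.97 in fed LKO and from 6.84 to 7.15 with a median of 6.99 in fasted LKO. Fed and fasted animals were apart in both genotypes. It fell 2.84-fold in WT (log2 change -1.51, SE 0.18, adjusted p = 1.54e-06) and 3.61-fold in LKO (log2 change -1.85, SE 0.17, adjusted p = 2.33e-08), and the difference of -0.34 ± 0.25 SE was not called, except without fed LKO replicate 3 (-0.51, adjusted p = 0.0482).

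In WT 3 of the 7 glycogen genes were called higher and 3 lower after fasting, and in LKO 3 higher and 2 lower. Gys2, the liver glycogen synthase, was at 7.11, 6.81, 6.94, 6.98 and 7.01 in fed WT and 7.48, 7.97, 7.20, 7.25 and 7.12 in fasted WT, from 6.05 to 6.67 with a median of 6.51 in fed LKO and from 7.09 to 8.01 with a median of 7.79 in fasted LKO. Fasted animals were above fed ones in both genotypes, and fed LKO lay below fed WT without overlap but without a call (-0.50 ± 0.16 SE, adjusted p = 0.0999), while the authors' deposited table (-0.52, adjusted p = 0.0453), normexp with quantile normalization and a fit of the compared groups alone gave one. It rose 2.27-fold in LKO (log2 change 1.18, SE 0.16, adjusted p = 2.65e-06) and 1.35-fold in WT (log2 change 0.43, SE 0.17, adjusted p = 0.0436). The rise in WT was close to the threshold. It was not called with the slide as a block (0.42, adjusted p = 0.0543), with the replicate block, without a filter, under both quantile normalizations or under the authors' table (0.37, adjusted p = 0.0557). It was also lost without fed WT replicate 2, 3, 4 or 5, fasted WT replicate 1 or 2 or fed LKO replicate 5, falling to 0.29 (adjusted p = 0.148) without fasted WT replicate 2, the fasted WT animal with the highest level. The responses differed by 0.75 ± 0.23 SE (adjusted p = 0.0284), which was not called without fed WT replicate 1 or fasted WT replicate 3 or 5 (0.67 to 0.71, adjusted p 0.0517 to 0.0569).

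Pygl, the liver glycogen phosphorylase, moved the other way. It was at 7.37, 7.54, 7.45, 7.18 and 7.64 in fed WT and 5.98, 5.84, 5.93, 5.95 and 6.01 in fasted WT, from 6.61 to 7.81 with a median of 7.49 in fed LKO and from 4.89 to 5.22 with a median of 5.13 in fasted LKO. Fed and fasted animals did not overlap, and neither did the fasted genotypes. It fell 2.82-fold in WT (log2 change -1.50, SE 0.15, adjusted p = 1.12e-07) and 4.81-fold in LKO (log2 change -2.27, SE 0.14, adjusted p = 8.96e-11), a difference of -0.77 ± 0.20 SE (adjusted p = 0.011). Gbe1, the branching enzyme, was at 5.27, 5.32, 5.40, 5.07 and 5.79 in fed WT and 4.28, 4.12, 4.30, 4.31 and 4.23 in fasted WT, from 4.50 to 5.59 with a median of 5.36 in fed LKO and from 4.27 to 4.65 with a median of 4.42 in fasted LKO. The states were apart in WT and overlapped in LKO. Gbe1 fell in WT (-1.12 ± 0.16 SE) and LKO (-0.79 ± 0.14 SE) by 2 of its 3 oligos, while a dimmer one annotated to another transcript was called higher in LKO (log2 change 0.79, SE 0.22, adjusted p = 0.00592), and the mean of its oligos gave no call in LKO (-0.25, adjusted p = 0.191).

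Ugp2, which makes the UDP-glucose that glycogen synthase uses, was at 5.75, 5.72, 5.79, 5.36 and 6.37 in fed WT and 5.39, 5.03, 5.00, 5.17 and 5.29 in fasted WT, from 4.25 to 5.82 with a median of 5.69 in fed LKO and from 5.51 to 5.94 with a median of 5.76 in fasted LKO. Fasted LKO was above fasted WT without overlap. It fell in WT (log2 change -0.62, SE 0.23, adjusted p = 0.0312) and had no call in LKO (0.31 ± 0.21 SE), and was higher in fasted LKO than in fasted WT (log2 change 0.58, SE 0.22, adjusted p = 0.0407), with a difference of responses of 0.93 ± 0.31 SE (adjusted p = 0.0395). These 3 calls were close to the threshold. The fall in WT was lost without fed WT replicate 5 or fasted WT replicate 2, 3 or 4 (adjusted p 0.0505 to 0.0981). The fasted difference was lost without 9 of the 11 fasted animals, all but fasted WT replicate 1 and fasted LKO replicate 6 (adjusted p 0.0533 to 0.0888), and the difference of responses in 12 of the 22 such fits, with values between 0.79 and 0.95 (adjusted p 0.0514 to 0.0777).

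Ppp1r3b, Ppp1r3c and Ppp1r3g encode subunits that bring protein phosphatase 1 to glycogen, where it activates the synthase. Ppp1r3b was at 7.10, 7.06, 7.51, 7.29 and 7.63 in fed WT and 8.06, 8.30, 7.98, 8.01 and 7.99 in fasted WT, from 7.28 to 7.67 with a median of 7.57 in fed LKO and from 8.20 to 8.42 with a median of 8.31 in fasted LKO. It rose in WT (log2 change 0.75, SE 0.10, adjusted p = 6.06e-06) and LKO (log2 change 0.79, SE 0.09, adjusted p = 6.76e-07) with fed and fasted animals apart. It was called higher in fasted LKO than in fasted WT without fed WT replicate 5 (0.23, adjusted p = 0.0449) or fasted WT replicate 2 (0.29, adjusted p = 0.0305) and under the authors' table (0.28, adjusted p = 0.0211). Ppp1r3g was at -0.27, 0.73, -1.19, -3.001 and 0.58 in fed WT and 2.65, 5.05, 3.12, 2.68 and 1.63 in fasted WT, from -4.33 to 1.39 with a median of -0.36 in fed LKO and from 0.88 to 2.29 with a median of 1.44 in fasted LKO. It had the largest rise of any member, with a wide spread among the fed animals and an overlap of fed and fasted LKO animals. The rise was 3.65 ± 0.87 SE in WT (adjusted p = 0.00175) and 2.17 ± 0.79 SE in LKO (adjusted p = 0.0277), the latter lost without fed LKO replicate 6 (1.43, adjusted p = 0.0732) or fasted LKO replicate 2 or 3 (2.02 and 2.03, adjusted p = 0.0545 and 0.0551). Ppp1r3c was called in no comparison, and its fed LKO animals spread from 0.17 to 3.55.

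**Figure D4:**
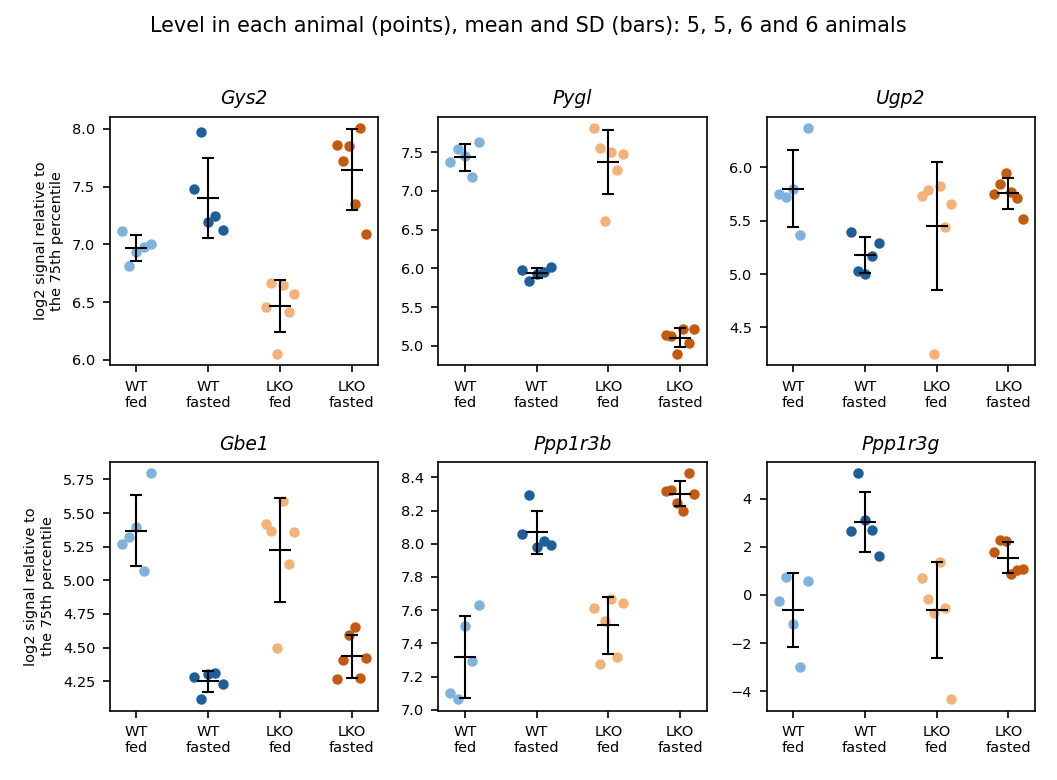
Level of 6 glycogen genes in each animal (y, log2 signal relative to the 75th percentile of the array), with bars for the mean and SD (5 WT mice and 6 LKO mice in each state). Gys2 and Ppp1r3b are higher and Pygl is lower in all fasted animals of a genotype, and Pygl is lowest in fasted LKO.

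Of the 15 members with a called difference of responses, 12 were called lower in fasted LKO than in fasted WT, Ugp2 was called higher, and Got1 and Gys2 were not called there. Got1 was called lower there without fed LKO replicate 5 (-0.42, adjusted p = 0.0469) or fasted LKO replicate 5 (-0.52, adjusted p = 0.0304). The fasted genotype difference is a part of the difference of responses, so the 12 calls are not separate support. The matching share among all genes with a called difference was not counted. In the fed state, none of the 15 members but Got1, Gpd1 and Gpd2 was called between genotypes. Endothelial markers moved with the same contrast. All 6 (Stab2, Lyve1, Pecam1, Clec4g, Kdr and Gpr182) were called lower in fasted LKO than in fasted WT, where 21.4% of all genes were lower and 16.5% higher. Of the 6, 5 had a more negative response in LKO, against 11.1% of all genes. Their mean level was 1.64 to 2.00 in fed WT, 2.13 to 2.49 in fasted WT, 1.74 to 2.04 in fed LKO and 1.65 to 1.95 in fasted LKO, all well above background. With fasting, 4 of the 6 rose in WT, and 1 rose and 3 fell in LKO. Of the 8 hepatocyte markers, 3 rose and 1 fell with fasting in WT and 4 rose and 2 fell in LKO, while 1 was called lower in fasted LKO and none in the difference of responses. Of the other lists, none had a call in the difference of responses. In fasted LKO against WT they gave 2 higher of 4 tested red blood cell markers, 1 lower of 6 macrophage markers, none of 5 stellate cell markers or 3 pancreas markers, 1 higher of 3 neutrophil markers, 1 higher of 5 cholangiocyte markers and 1 lower of 4 adipocyte markers. With fasting, stellate cell markers gave 3 rises in WT and 2 rises and 1 fall in LKO, red blood cell markers 2 falls in WT and 1 in LKO, and macrophage markers 1 rise and 2 falls in WT and 1 of each in LKO. Pancreas markers gave 1 rise and 1 fall in WT and 1 rise and 2 falls in LKO, neutrophil markers 1 fall in each genotype, and cholangiocyte markers 1 fall in WT. The part of these lists in the members' results was not tested.

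**Figure D5:**
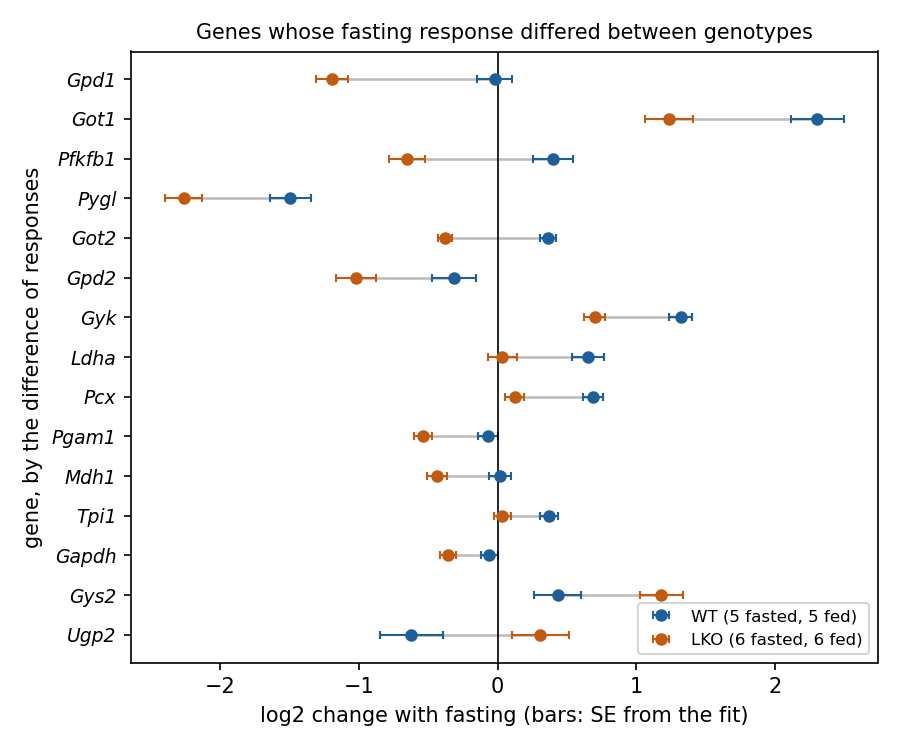
Log2 change with fasting (x, with SE from the fit) in WT (blue) and LKO (orange) for the 15 genes with a called difference of responses, ordered by that difference. The LKO value lies to the left of the WT value for 13 genes and to the right for Gys2 and Ugp2.

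Fed LKO replicate 3 stood apart for these genes. It was the lowest of the 6 fed LKO animals for 27 of the 39 members, against 32.6% of all genes. Without it the counts were 13 higher and 12 lower with fasting in WT, 8 and 20 in LKO, 0 and 3 in fed LKO against WT, 2 and 18 in fasted LKO against WT, and 2 and 17 for the difference of responses. Each of the 87 called member changes had the same sign within each of the 3 slides, which all held every group. The slides hold the same arrays that gave the calls, so this is not separate support. The share for other called genes was not counted.

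Of 48 further genes of these pathways, 45 could be tested. With fasting in WT 15 rose and 6 fell, against 23.1% and 21.2% of all genes. In LKO 13 rose and 13 fell, against 23.0% and 26.7%. Tkfc, which phosphorylates glyceraldehyde from fructose, fell in both (log2 change -1.52, SE 0.17, adjusted p = 4.64e-07 in WT and -2.05 in LKO), and Hk3, a hexokinase of blood cells, was also lower (-0.86 in WT and -0.75 in LKO). Slc2a1, the widely expressed glucose transporter GLUT1, rose in WT (log2 change 0.97, SE 0.13, adjusted p = 5.85e-06) and LKO (0.47). Aldh1b1, a mitochondrial aldehyde dehydrogenase, fell in LKO (log2 change -1.02, SE 0.18, adjusted p = 7.09e-05), and Pfkfb2, another bifunctional isoform, rose there (log2 change 0.96, SE 0.11, adjusted p = 7.36e-07). Between genotypes 2 were higher and 2 lower in fed LKO, against 1.77% and 2.25% of all genes. The called ones included Aldh1b1 (0.91), the monocarboxylate carrier gene Slc16a1 (0.36) and Slc25a13 (-0.30), which encodes an aspartate-glutamate carrier. In fasted LKO 6 were higher and 15 lower, against 16.5% and 21.4% of all genes. Slc25a10, the dicarboxylate carrier, was lower (log2 change -1.59, SE 0.12, adjusted p = 2.26e-09), as was Slc25a13 (-0.77), and Pck2, the mitochondrial form of the Pck1 enzyme, was higher (log2 change 0.79, SE 0.15, adjusted p = 0.000391). The response differed for 10 of the 45, with 3 more positive and 7 more negative in LKO, against 7.50% and 11.1% of all genes. The largest differences were those of Aldh1b1 (-1.23), Slc25a10 (-1.21) and Slc16a1 (-0.93).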

How the data were processed

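Liver RNA of 22 mice was read on 24 one-colour Agilent arrays. Per the file headers, the deposited scanner files hold spot intensity from Agilent Feature Extraction (version 10.10.1.1). A second deposited file holds the authors' log2 values of these arrays, whose scaling is not given in the sources used here, although the submitters' processing notes name limma. Control and outlier spots were left out here. The spots of each oligo were averaged, and the 75th percentile of the array was subtracted on the log2 scale. The 2 arrays of an animal were averaged. An oligo was kept if 5 or more of the 22 animals had it well above background (28138 of 46291 with a symbol), and a gene was read by its brightest kept oligo (17215 genes). A model with 1 mean per group was fitted with limma 3.58.1 in R 4.3.3 and was tested on simulated data. The members, the further pathway genes, the markers and the motifs were chosen with earlier results of these data known. Genes named beyond the members are the up to 3 further pathway genes with the largest called change per comparison. Members are described by role, with the values in animals for those with the largest changes, for Pck1, G6pc, Pklr, Gys2 and Pygl, and, chosen after their values were seen, for Pcx and Tpi1. Marker lists were checked for hepatocytes, skeletal muscle, adipocytes, pancreas, red blood cells, macrophages, endothelium, stellate cells, neutrophils and cholangiocytes. Motifs were searched on both strands of RefSeq windows. The number of arrays limits the precision.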

Additional observations from a re-analysis of the deposited data

Results flagged for a closer look

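The fasting response differed between genotypes for 15 members, by the test of the difference itself (LKO change minus WT change, log2). It was more negative in LKO for Gpd1 (-1.17), Got1 (-1.07), Pfkfb1 (-1.05), Pygl (-0.77), Got2 (-0.75), Gpd2 (-0.71), Gyk (-0.62), Ldha (-0.62), Pcx (-0.56), Pgam1 (-0.47), Mdh1 (-0.45), Tpi1 (-0.34) and Gapdh (-0.30). It was more positive for Ugp2 (0.93) and Gys2 (0.75).

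In 11 of 156 groups of animals, 1 animal lay far from the rest of its group. Chance alone marks about 1 in 20 groups. Fed LKO replicate 3 gave 6 of the 11. It was the lowest of its group for Slc37a4 (6.51, others 7.14 to 7.41), Slc2a2 (2.47, others 3.53 to 3.94) and Ugp2 (4.25, others 5.44 to 5.82), and the highest for Pcx (7.35, others 7.06 to 7.16), Ldha (8.88, others 8.07 to 8.30) and Ldhd (5.67, others 5.10 to 5.20). Low values were also seen for Pck1 in fed WT replicate 2 (7.76, others 8.35 to 8.47), Tpi1 in fed WT replicate 1 (6.93, others 7.02 to 7.05), Ldhb in fasted LKO replicate 6 (-0.77, others -0.14 to 0.24) and Got2 in fasted LKO replicate 3 (5.82, others 6.04 to 6.15). Ppp1r3b was high in fasted WT replicate 2 (8.30, others 7.98 to 8.06).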

How the results depend on the processing

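Alternatives were normexp background correction with quantile normalization, quantile normalization alone, the authors' deposited table, no filter and a stricter filter on dim oligos (11 of 22 animals), the mean of a gene's oligos, the slide or the replicate number as a block, only the groups compared in the fit, and leaving out each animal. Of 87 called member changes, 67 were called the same way in each of up to 31 such fits, and of 108 without a call, 82 stayed without one. The one reversal was Hk1 in fasted LKO against WT, at -0.047 with the mean of its oligos. Counts with fasting, in both genotypes and directions, stayed within 1.5 times the main count, as did the lower counts of the fasted genotype comparison and of the difference of responses. The 1 member higher in fed LKO became 0 without a filter, with the mean of oligos, with the slide block, with the replicate block and with only the compared groups, and the 2 lower (Gpd1 and Gpd2) became 1 without a filter (Gpd2), with the mean of oligos (Gpd1) and with only the compared groups, where both lost the call and Gys2 gained one. The 2 members higher in fasted LKO became 4 under normexp with quantile normalization, 0 without a filter and 1 with the replicate block. The 2 with a more positive response in LKO became 0 without a filter and 1 with the replicate block. The cause was not tested, except that without a filter 27248 genes were adjusted over.

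Leaving out 1 animal gave 10 to 13 higher and 10 to 12 lower with fasting in WT, 6 to 8 and 19 to 20 in LKO, 0 to 1 and 1 to 3 in fed LKO, 0 to 3 and 16 to 18 in fasted LKO, and 0 to 2 and 12 to 17 for the difference of responses. Under quantile normalization the split of all genes in fasted LKO against WT turned from 2843 higher and 3676 lower to 3408 and 3206, and that of the difference of responses from 1291 and 1909 to 1645 and 1574.

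Animals share only a replicate number. Over 31 pairs of same-numbered animals the correlation of deviations from the group means ran from -0.18 to 0.18, with 5 above 0.1. The labels do not say whether the numbers pair animals. Differently numbered animals were not compared, so these correlations cannot settle it. With the replicate block, fasting in WT gave 12 higher and 12 lower members and fasting in LKO 7 and 19.

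The number of animals and the signal over background limit what can be seen. Slc2a4 was not above background in 3 of 5 fasted WT animals, and Hk2 and Ppp1r3g were dim in 1 animal each, so their changes are less certain than those of the bright members.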

Other observations

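The spread between animals in the fed state was compared with that in the fasted state. The SD was larger when fed for 23 of 39 members in WT (59.0%), close to the 54.0% of all genes, and for 30 of 39 in LKO (76.9%, against 58.2% of all genes). The LKO share rested on fed LKO replicate 3, which was the lowest of its group for 27 of the 39 members. Without it, in a comparison added after seeing the data, the SD was larger when fed for 18 of 39 members (46.2%, against 43.6% of all genes), and their median SD was 0.13 fed and 0.14 fasted.

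Among fed WT mice, replicate 4 was the lowest for 16 of the 39 members, G6pc, Slc2a2, Slc2a4, Pfkfb1, Pfkfb3, Pklr, Khk, Pygl, Ugp2, Gbe1 and Ppp1r3g among them, against 23.0% of all genes, and replicate 5 was the highest for 19, against 27.7%. These are values of single animals with no test.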
